A study of Mus musculus with 8 samples.

Results

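Interferon-stimulated genes were examined in the livers of mice fed a high-fructose diet (HFrD) and mice fed a normal diet (ND). They are 43 of the 22564 protein-coding genes in the deposited mRNA table, taken by their gene names, and all 43 were found. Of these, 34 belong to the type I response and 9 are GTPases best known from the interferon-gamma response. All animals were male C57BL/6J mice, an inbred strain, 10 to 11 weeks old before the diets. The HFrD supplied 10% of its kcal as fat, 70% as carbohydrate and 20% as protein, the diets lasted 2 weeks, and liver RNA of 4 HFrD mice (numbered 1, 2, 5 and 7) and 4 ND mice (1, 3, 6 and 7) was sequenced, 1 library per mouse. The values are FPKM (sequenced fragments of a gene, divided by its length and by the number of fragments in that library), so levels of different genes can be set beside each other per length. Absolute depth is unknown. HFrD libraries listed 14053 to 14392 genes above 0, and ND libraries 13755 to 13973.

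Interferons are secreted cytokines that warn cells of infection. Type I interferons signal through the kinases Jak1 and Tyk2 to a complex that holds Stat2 and Irf9 and binds the interferon-stimulated response element in the promoters of its target genes. Interferon-gamma has a receptor of its own and acts mainly through another promoter element, the gamma-activated sequence. In the liver, hepatocytes as well as Kupffer cells, the resident macrophages, respond to both, and the induced proteins detect foreign nucleic acid, block viral entry, copying or release, or attack the vacuoles of intracellular microbes.

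The response elements are shown here because they are the part of the gene that the pathway acts on. In the 250 bases before the start site, taken from RefSeq on GRCm38.p6, 32 of the 43 members had an entry. The letters GAAANNGAAA (TTTCNNTTTC on the other strand) of the interferon-stimulated response element were found in 15 of the 32 (46.9%), against 936 of 27025 gene symbols in all (3.46%). The letters TTCNNNGAA, which read the same on both strands and stand for the gamma-activated sequence, were found in 7 of the 32 (21.9%), against 2197 of the 27025 (8.13%). Both were present in 5 members (*Bst2*, *Gbp7*, *Igtp*, *Irgm2* and *Oas1a*), and in *Bst2* the matches overlap. Of the GTPases 6 of 7 held the response element, and of the type I members 9 of 25. Among members higher in HFrD livers by the test described below 7 of 12 held it, and among those that did not pass 8 of 20. The stretches of 6 members follow, those with a match that passed the test and had the smallest p values, 5′ to 3′ in the direction of the gene, with the response element in capitals.
Bst2 (chr8:71537575-71537614, minus strand): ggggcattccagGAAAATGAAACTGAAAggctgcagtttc
Oas3 (chr5:120777713-120777746, minus strand): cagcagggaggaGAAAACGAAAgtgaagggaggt
Oas1a (chr5:120907526-120907557, minus strand): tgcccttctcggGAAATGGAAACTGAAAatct
Stat2 (chr10:128270264-128270297, plus strand): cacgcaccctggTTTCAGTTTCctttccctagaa
Gbp3 (chr3:142559987-142560026, plus strand): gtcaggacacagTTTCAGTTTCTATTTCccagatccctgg
Gbp7 (chr3:142530271-142530304, plus strand): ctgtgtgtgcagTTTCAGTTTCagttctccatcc
The element begins 130 bases before the start in *Bst2*, 75 in *Oas3*, 20 in *Oas1a*, 222 in *Stat2*, 45 in *Gbp3* and 53 in *Gbp7*. In *Bst2*, *Oas1a* and *Gbp3*, 2 matches overlap and are capitalised as 1 run. A match describes the letters of the window and is no evidence of binding.

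In HFrD livers 12 of 33 tested type I members were higher than in ND livers. Among them were the tetherin gene *Bst2*, *Ifitm3*, the transcription factor gene *Irf7* and the oligoadenylate synthetase gene *Oas1a*. Of the 9 gamma-induced GTPases 2 were higher, both among the 4 guanylate-binding proteins, and the difference between these groups was not tested. Of the 43 members, 42 had a mean of at least 0.5 FPKM and were tested with limma on log2(FPKM + 1) in a fit over 11476 genes. *Mx2* was listed at values that round to 0 in every library and was not tested. At an adjusted p (Benjamini-Hochberg over all genes) under 0.05, 14 members (33.3%) were higher in HFrD livers, beside 5.44% of all genes tested, and 0 were lower, beside 3.69%. At an unadjusted p under 0.05, 28 were higher and 1 was lower. The share of all genes at that threshold was not counted, here or for the lists below. The count of 14 was 9 without ND mouse 1 and 9 without ND mouse 6, and 16 passed when HFrD mouse 1 and ND mouse 7 were both left out, an alternative added after seeing the data. All 4 HFrD livers lay above all 4 ND livers for 21 members (50.0%), beside 9.6% of all genes, and below them for 1 member, *Ifi47*, beside 7.01%. The log2 fold change was above 0 for 40 of the 42, beside 52.4% of all genes, and its median was 0.57, beside 0.014 over all genes. Likewise 40 of 42 were above 0 with a pseudocount of 0.1, after quantile normalization and after equalising the medians of the libraries. In bulk liver RNA, more cells of a type that expresses a gene and more of its RNA per cell cannot be told apart.

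The 33 tested type I members all had a log2 fold change above 0, with a median of 0.67, and 12 of them were higher by the test. Among the 9 GTPases the median was 0.20. The 4 guanylate-binding proteins among them had a median of 0.52 and the 5 immunity-related GTPases one of 0.063. Mean levels of the tested members over the 8 livers ranged from 0.68 to 271 FPKM, and because 1 is added before the log2 is taken, the fold change of a low gene comes out smaller than the ratio of its FPKM. For 3 members (*Oas2*, *Oas3* and *Mx1*) the ND mean was under 0.5 FPKM, so that they entered the test through their HFrD values. Without them, 12 of 39 members were higher. The counts of higher type I members, of higher antiviral effectors and of members without overlap include *Oas2* and *Oas3*. All 3 are in the counts of fold changes above 0 and in the type I median. With a filter at a mean of 1 FPKM, which leaves the 3 out, that median was 0.61. Of the 39 members then tested, 37 were above 0. *Oas3* is also among the higher members that held the response element.

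**Figure D1:**
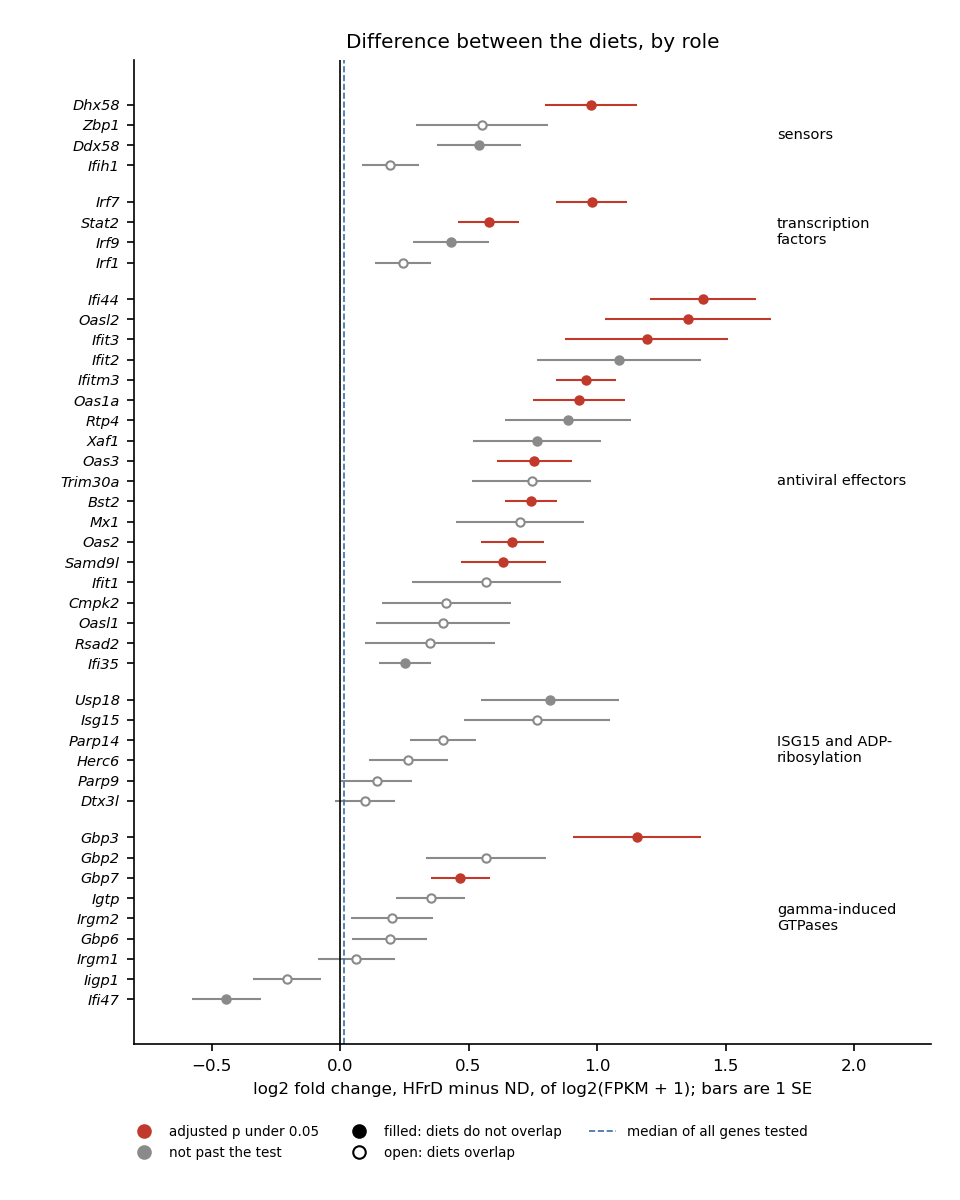
Log2 fold change (HFrD minus ND, of log2(FPKM + 1)) of each tested member, grouped by role, with bars of 1 SE and 4 mice per diet. Red points passed the test, filled points are members whose diets did not overlap, and the dashed line is the median of all genes tested, 0.014. All 33 type I members lie to the right of 0, and *Ifi47* and *Iigp1* among the GTPases lie to its left.

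Values below are in the order of HFrD mice 1, 2, 5 and 7 and of ND mice 1, 3, 6 and 7, positions are those of GENCODE on GRCm38, and ± is the SE of the log2 fold change. For every member whose diets did not overlap, an exact two-sided permutation test that relabels the mice in all 70 possible ways gave p = 0.0286, the smallest it can give. That value follows from the lack of overlap itself and adds nothing to it.

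The sensors recognise viral nucleic acid inside the cell. *Dhx58* (chromosome 11, 100694884 to 100704271) encodes LGP2, a helicase that binds double-stranded RNA and tunes the signal of its relatives. It was at 6.12, 8.76, 6.89 and 5.88 FPKM in HFrD livers and at 4.09, 2.46, 2.11 and 3.61 FPKM in ND livers. Every HFrD liver was above every ND liver, with a mean 2.25 times as high and a log2 fold change of 0.97 ± 0.18 (limma adjusted p = 0.0108). Its locus in the authors' table is shared with other genes, so its level is less certain than that of a gene that stands alone. *Ifih1*, which encodes MDA5 and had the highest mean of the sensors, was at 18.8, 23.5, 18.4 and 17.3 FPKM against 17.1, 18.4, 14.9 and 17.0 FPKM. The diets overlapped, and the difference of 0.20 ± 0.11 did not pass (limma adjusted p = 0.303). *Ddx58*, which encodes the RNA sensor RIG-I, did not overlap between the diets but did not pass either (0.54 ± 0.16, limma adjusted p = 0.0666). *Zbp1*, a sensor of left-handed nucleic acid, overlapped, with 3.44 to 6.83 FPKM in HFrD and 2.06 to 5.64 FPKM in ND livers.

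Among the transcription factors, *Irf7* and *Stat2* were higher in HFrD livers. *Irf7* (chromosome 7, 141262706 to 141266481) encodes the factor that drives most of the type I interferon genes and is itself induced by interferon. Its level was 31.6, 32.0, 22.6 and 22.3 FPKM in HFrD livers and 11.3, 13.6, 13.1 and 14.5 FPKM in ND livers. The means differed 2.07-fold (log2 fold change 0.98 ± 0.14, limma adjusted p = 0.00348), and HFrD mice 1 and 2 lay well above HFrD mice 5 and 7. The authors' locus of *Irf7* is shared with 1 other gene. *Stat2* (chromosome 10, 128270559 to 128292849), a part of the complex that binds the response element, was at 16.4, 18.2, 14.3 and 15.3 FPKM against 9.28, 11.8, 9.01 and 11.7 FPKM. The lowest HFrD liver was 1.21 times the highest ND liver, and the log2 fold change was 0.58 ± 0.12 (limma adjusted p = 0.0168). Without ND mouse 1 the adjusted p of *Stat2* was 0.0519. *Irf9*, the DNA-binding part of the same complex, did not overlap either (12.3 to 20.0 FPKM in HFrD, 10.1 to 11.9 FPKM in ND livers) but did not pass (limma adjusted p = 0.0964). *Irf1*, a factor induced by both kinds of interferon, was at 15.0 to 19.0 FPKM in HFrD and 11.8 to 15.5 FPKM in ND livers, which overlap.

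The antiviral effectors held 9 of the 14 members that passed, out of 19 tested. The most abundant was *Ifitm3* (chromosome 7, 141009586 to 141010770), a membrane protein that stops viruses from fusing out of endosomes. It was at 326, 342, 374 and 385 FPKM in HFrD livers and at 163, 209, 157 and 209 FPKM in ND livers. The lowest HFrD liver was 1.56 times the highest ND liver, and the log2 fold change of 0.96 ± 0.12 had the smallest adjusted p of all members (limma, 0.00183). *Bst2* (chromosome 8, 71534255 to 71537456) encodes tetherin, which holds budding virus particles on the cell surface. Its values were 67.4, 75.3, 67.5 and 74.6 FPKM against 41.2, 48.7, 35.5 and 44.1 FPKM. The HFrD livers lay close together and 1.68 times above the ND livers on average (log2 fold change 0.74 ± 0.10, limma adjusted p = 0.003). *Bst2* and *Ifitm3*, as well as *Samd9l* and *Rtp4*, stand in the study's own lists of genes changed in both HFrD and leptin receptor-deficient (*db/db*) mice. The HFrD side of these lists was drawn up from these same libraries and so lends no independent support to their direction. In *db/db* mice the lists give *Bst2*, *Ifitm3* and *Rtp4* as lower and *Samd9l* as higher.

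The oligoadenylate synthetases make a second messenger that switches on RNase L, an enzyme that degrades RNA. Of the 5 Oas and Oasl members, 4 were higher, and all 4 had no overlap between the diets. Without *Oas2* and *Oas3*, which reached the filter through their HFrD values, 2 of 3 were higher. *Oas1c* and *Oas1g*, of the same family but no members, overlapped between the diets and did not pass. They differed by -0.0049 ± 0.16 (limma adjusted p = 0.989) and 0.33 ± 0.16 (limma adjusted p = 0.236). *Oas1a* (chromosome 5, 120896256 to 120907521) was at 2.40, 4.23, 2.91 and 3.33 FPKM in HFrD livers and at 1.63, 0.708, 1.01 and 1.52 FPKM in ND livers (0.93 ± 0.18, limma adjusted p = 0.0136). *Oas2* (120730333 to 120749853 on the same chromosome) was at 1.76, 1.19, 1.27 and 1.34 FPKM against 0.615, 0.431, 0.432 and 0.516 FPKM (0.67 ± 0.12, limma adjusted p = 0.0106). *Oas3* (120753098 to 120777661) was at 1.16, 1.35, 1.01 and 0.882 FPKM against 0.404, 0.257, 0 and 0.344 FPKM (0.76 ± 0.15, limma adjusted p = 0.0136). These 3 genes are neighbours and low in ND livers, and the lowest HFrD value was 1.47 times the highest ND value for *Oas1a*, 1.94 times for *Oas2* and 2.18 times for *Oas3*. *Oas1a* has close copies such as *Oas1g*, and reads of such copies may be split between them. *Oasl2* (114896936 to 114912234), a synthetase-like protein, was at 5.80, 15.6, 8.53 and 5.76 FPKM against 4.32, 1.69, 1.58 and 3.61 FPKM. Its mean was 3.19 times as high in HFrD livers (1.35 ± 0.32, limma adjusted p = 0.0298), and HFrD mouse 2 had the highest value. The adjusted p of *Oasl2* was 0.0565 without HFrD mouse 2, 0.0722 without HFrD mouse 5, 0.0838 without ND mouse 3 and 0.0763 without ND mouse 6. *Oasl1*, known in mice to hold back the making of Irf7 protein, overlapped (5.09 to 14.3 FPKM in HFrD, 4.13 to 7.01 FPKM in ND livers).

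*Ifi44* (chromosome 3, 151730922 to 151749960), an interferon-induced gene of the cytoplasm, had the highest log2 fold change of the members. Its level was 4.07, 7.86, 3.87 and 4.37 FPKM in HFrD livers and 1.18, 1.06, 0.879 and 1.78 FPKM in ND livers. The lowest HFrD value was 2.17 times the highest ND value (1.41 ± 0.20, limma adjusted p = 0.00375). *Ifit3* (chromosome 19, 34583531 to 34588731) belongs to a family that binds foreign RNA and keeps it from being translated. It was at 14.0, 32.4, 9.74 and 12.8 FPKM against 5.69, 5.49, 5.01 and 9.47 FPKM (1.19 ± 0.32, limma adjusted p = 0.044). HFrD mouse 2 was far above the other HFrD livers, and HFrD mouse 5 was close to ND mouse 7. Its adjusted p was between 0.0557 and 0.105 when HFrD mouse 1 or 7 or ND mouse 1, 3 or 6 was left out. *Samd9l* (chromosome 6, 3372257 to 3399572), a restriction factor of poxviruses, was at 10.5, 16.8, 11.6 and 10.1 FPKM against 7.63, 6.85, 6.10 and 9.21 FPKM (0.64 ± 0.17, limma adjusted p = 0.0418). That call was lost without any 1 of HFrD mice 2, 5 and 7 and ND mice 1, 3 and 6 (adjusted p 0.0544 to 0.101), and also after quantile normalization (0.0556).

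The other 10 tested effectors did not pass. *Ifit2*, *Rtp4*, *Xaf1* and *Ifi35* nevertheless had no overlap between the diets. *Ifit2* was at 3.16 to 12.3 FPKM in HFrD and 1.28 to 2.17 FPKM in ND livers (1.09 ± 0.32, limma adjusted p = 0.0617), and it passed when HFrD mouse 2 (0.0428) or HFrD mouse 1 (0.0365) was left out. *Rtp4*, a receptor transport protein, was at 11.8 to 24.5 FPKM against 5.32 to 11.6 FPKM (0.89 ± 0.25, limma adjusted p = 0.0513) and passed without ND mouse 7 (0.0355). *Xaf1*, a promoter of cell death, was at 6.92 to 9.49 FPKM against 1.97 to 6.63 FPKM (limma adjusted p = 0.0842) and passed without ND mouse 3 (0.0465). *Ifi35* was at 11.5 to 15.0 FPKM against 10.8 to 11.5 FPKM. The diets overlapped for *Ifit1*, *Rsad2* (viperin, which makes a nucleotide that halts viral RNA synthesis), its neighbour *Cmpk2*, *Trim30a*, *Oasl1* and *Mx1*. *Mx1*, an antiviral GTPase whose C57BL/6 allele is defective, was at 0.671 to 2.26 FPKM in HFrD livers and at 0 to 0.909 FPKM in ND livers, after rounding.

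**Figure D2:**
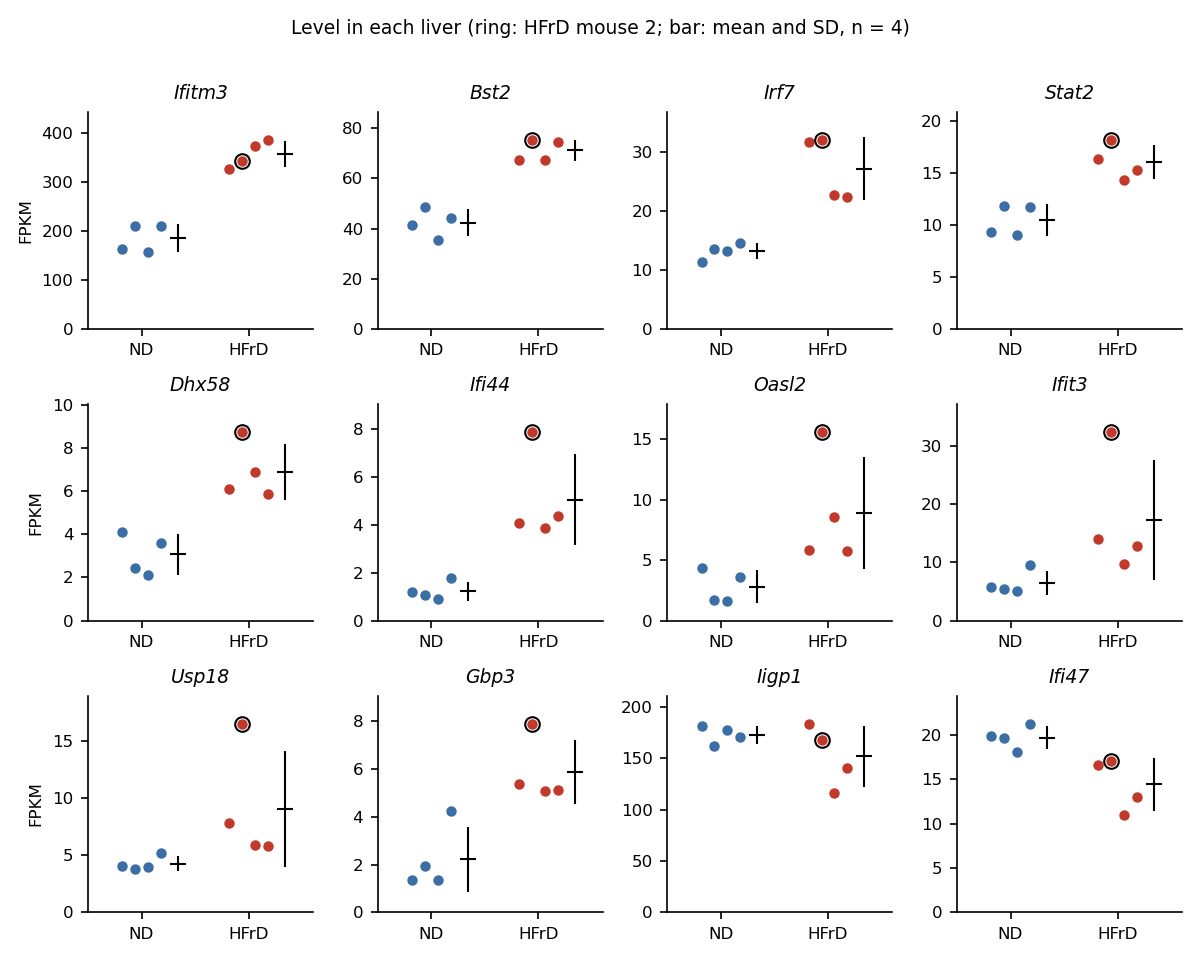
FPKM in each liver for 12 members, with ND in blue, HFrD in red, and the mean and SD (n = 4) beside the points. The ring marks HFrD mouse 2. *Ifitm3*, *Bst2* and *Irf7* are separated between the diets with HFrD mouse 2 among the others, whereas for *Ifit3*, *Oasl2* and *Usp18* that mouse stands far above them, and *Ifi47* is separated in the opposite direction.

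Of the 6 members around ISG15 and ADP-ribose, 0 passed, and at an unadjusted p under 0.05 there were 3. *Isg15* encodes a protein that is attached to others much like ubiquitin, *Herc6* attaches it in mice, and *Usp18* takes it off and also damps the type I receptor. *Usp18* was at 7.82, 16.5, 5.90 and 5.84 FPKM in HFrD livers and at 4.09, 3.80, 3.99 and 5.19 FPKM in ND livers, with no overlap (0.82 ± 0.27, limma adjusted p = 0.0845). *Isg15* was at 2.18 to 8.85 FPKM against 2.15 to 2.93 FPKM, and the low HFrD value was that of mouse 5. Without HFrD mouse 5 the adjusted p of *Isg15* was 0.015. *Parp14*, an enzyme that adds single ADP-ribose units, had the smallest p of the 6, at 18.7, 22.5, 14.8 and 18.6 FPKM against 14.7, 12.4, 12.8 and 15.4 FPKM (0.40 ± 0.13, limma adjusted p = 0.0783). Here too HFrD mouse 5 was the liver within the ND range, and without it the adjusted p was 0.0441. *Parp9*, which works in a complex with *Dtx3l*, had the highest mean of the 6, at 26.6, 31.8, 19.4 and 25.8 FPKM against 22.7, 26.3, 21.5 and 21.9 FPKM. The ranges overlap, with HFrD mouse 5 below every ND liver, and the difference was 0.14 ± 0.14 (limma adjusted p = 0.561). *Parp9* and *Dtx3l* share 1 locus in the authors' table, and *Dtx3l* differed by 0.10 ± 0.12.

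The gamma-induced GTPases belong to separate families, whose fold changes overlapped. Guanylate-binding proteins coat and break open the vacuoles of microbes, and *Gbp3* and *Gbp7* were higher in HFrD livers. *Gbp3* (chromosome 3, 142560026 to 142573209) was at 5.39, 7.89, 5.08 and 5.14 FPKM in HFrD livers and at 1.37, 1.96, 1.35 and 4.23 FPKM in ND livers (1.16 ± 0.25, limma adjusted p = 0.0202). ND mouse 7 was the ND liver nearest to the HFrD range. *Gbp7* (chromosome 3, 142530342 to 142550149) was at 6.64, 7.88, 6.23 and 6.45 FPKM against 4.72, 4.42, 3.98 and 5.46 FPKM (0.47 ± 0.12, limma adjusted p = 0.0338). Neither call held without HFrD mouse 2 (0.056 for *Gbp3*, 0.0939 for *Gbp7*) or without ND mouse 1, 3 or 6 (0.0527 to 0.0589 and 0.0747 to 0.0845), and that of *Gbp7* was also lost without HFrD mouse 5 (0.058) or 7 (0.0675). *Gbp2* (2.35 to 4.19 FPKM against 1.23 to 3.51 FPKM) overlapped and passed without ND mouse 7 (0.036), and *Gbp6* overlapped as well.

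None of the 5 immunity-related GTPases passed the test in the fit over 8 libraries, and at an unadjusted p under 0.05 *Igtp* was higher and *Ifi47* lower. *Iigp1*, which attacks parasite vacuoles, was the most abundant GTPase, at 183, 168, 116 and 140.0 FPKM in HFrD livers and at 181, 161, 177 and 170.2 FPKM in ND livers. HFrD mouse 1 lay above all ND livers and HFrD mice 5 and 7 below them (log2 fold change -0.20 ± 0.13, limma adjusted p = 0.369). *Ifi47*, singled out after its values were seen, was at 16.6, 17.1, 11.0 and 12.9 FPKM against 19.8, 19.6, 18.1 and 21.2 FPKM. It was the 1 member whose HFrD livers all lay below the ND livers (-0.44 ± 0.14, limma adjusted p = 0.0695), and it passed without HFrD mouse 1 (0.0464). The authors' locus of *Ifi47* is shared with *Tgtp1* and *Tgtp2*, among others, so its level is less certain than that of a gene that stands alone. *Igtp* (12.7 to 20.4 FPKM against 11.8 to 14.2 FPKM), *Irgm1* (31.0 to 53.8 against 35.6 to 42.1 FPKM) and *Irgm2* (17.4 to 28.8 against 18.2 to 24.9 FPKM) overlapped. For all 3, and for *Iigp1* and *Ifi47*, HFrD mouse 5 was the lowest of the HFrD livers.

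The members varied more within a diet than most genes, mainly through HFrD mouse 2. The median SD of log2(FPKM + 1) within the HFrD was 0.287 over the 42 members and 0.176 over all genes, and without HFrD mouse 2 it was 0.189 and 0.173. Within the ND it was 0.212 and 0.179. HFrD mouse 2 was the highest of the 8 livers for 34 of the 42 members (81.0%) but for 11.3% of all genes tested. ND mouse 6 was the lowest for 22 members (52.4%) and for 14.6% of all genes. Relative to the mean of the other 3 HFrD livers, HFrD mouse 2 stood furthest above for *Ifit2* (3.24 times), *Ifit3* (2.66), *Cmpk2* (2.61), *Rsad2* (2.56), *Usp18* (2.53) and *Ifit1* (2.51). It was at or above 1.5 times for 16 members, 5 of which passed the test.

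Members differed in how far their fold change rested on that mouse. Among the 16 members at or above 1.5 times, the log2 fold change without HFrD mouse 2 ran from 0.064 to 1.21 (median 0.53), and 3 of them passed the test without it. *Ifit2*, *Ifit3*, *Oasl2* and *Ifi44* kept 0.72, 0.85, 1.07 and 1.21, and *Oasl2* alone of these 4 did not pass (limma adjusted p = 0.0565). *Rsad2*, *Oasl1*, *Cmpk2* and *Ifit1* came to 0.064, 0.13, 0.15 and 0.26. Among the other 26 members the fold change without it ran from -0.53 to 0.98 (median 0.30), and 8 passed. These 8 include *Oas2* and *Oas3*, which entered the test through their HFrD values. Over all 11476 genes, 387 were higher and 218 lower in the fit without HFrD mouse 2. *Oas2* in HFrD mouse 2 was at 0.817 times the mean of the other HFrD livers, *Ifitm3* at 0.946 times and *Bst2* at 1.08 times, and without that mouse their log2 fold changes were 0.71, 0.98 and 0.72. All 3 other HFrD livers lay above all ND livers for 21 members, a count that was not made over all genes. Of the 14 members that passed, 8 passed with each library left out in turn, namely *Dhx58*, *Irf7*, *Oas1a*, *Oas2*, *Oas3*, *Bst2*, *Ifitm3* and *Ifi44*. Without *Oas2* and *Oas3* that is 6 of 12. Without HFrD mouse 2 the median log2 fold change was 0.52 over the type I members and 0.18 over the GTPases.

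**Figure D3:**
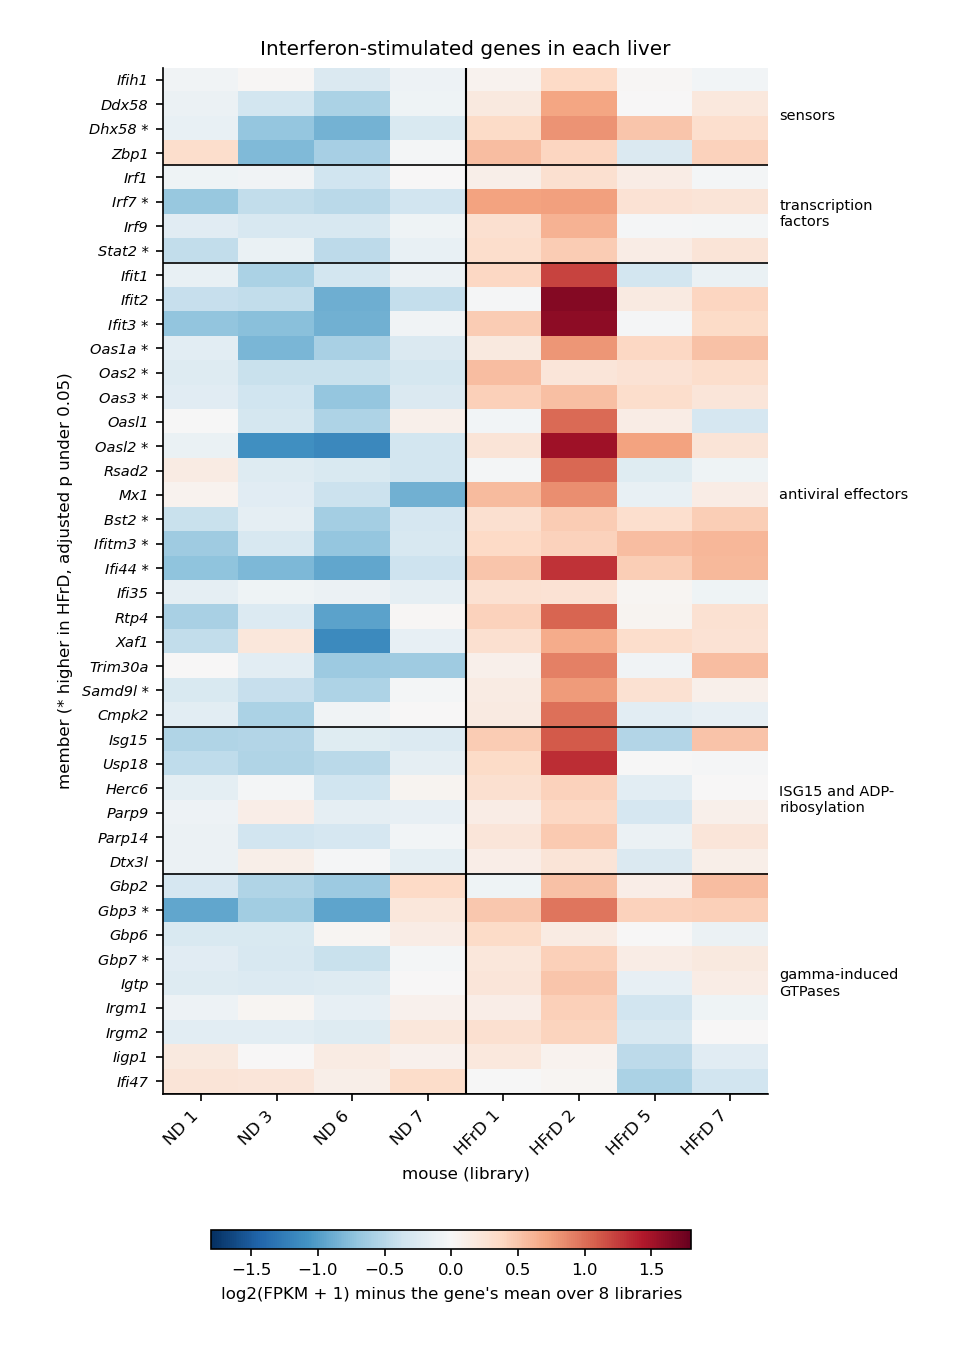
Heat map of the 42 tested members in the 8 livers, as log2(FPKM + 1) minus the mean of the gene, with ND livers on the left and HFrD livers on the right of the vertical line and roles separated by horizontal lines. Red is above and blue below the gene's mean. The column of HFrD mouse 2 is the reddest for 34 members, and in the row of *Ifi47* the 4 ND livers are red.

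Genes that are no members place these values along the pathway. The 18 type I and type III interferon genes in the table were listed at 0 in every library, and *Ifng*, the interferon-gamma gene, was at 0.231 FPKM in HFrD mouse 1 and 0.0936 FPKM in HFrD mouse 7 and at 0 in the other livers. Of 8 tested genes of the receptors and their Jak kinases, 0 passed by limma, also at an unadjusted p under 0.05, and the median log2 fold change was 0.077. The most abundant of them, the kinase gene *Jak1*, was at 38.9, 32.6, 37.1 and 31.7 FPKM with the HFrD and at 34.1, 37.5, 32.9 and 32.5 FPKM with the ND, which overlap. Of 6 tested inhibitors of the signal 0 passed, also at an unadjusted p under 0.05, and their median was -0.095. *Irf2*, which competes with activating factors for the response element and was the most abundant of the 6, was at 23.3, 22.5, 19.9 and 22.2 FPKM against 30.3, 22.0, 23.1 and 22.4 FPKM, which overlap as well.

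Upstream of interferon, 3 of 13 tested genes passed. Of the 13, 2 were higher (15.4%, beside 5.44% of all genes tested) and 1 was lower (beside 3.69%). *Mavs*, the mitochondrial adaptor through which the RNA sensors signal, was at 21.2, 21.4, 25.7 and 24.4 FPKM in HFrD livers and at 15.1, 17.6, 17.2 and 17.3 FPKM in ND livers (0.44 ± 0.09, limma adjusted p = 0.0202). *Tlr7*, an endosomal receptor for single-stranded RNA, was at 1.33, 1.58, 1.28 and 1.14 FPKM against 0.804, 0.642, 0.443 and 0.718 FPKM (limma adjusted p = 0.0342). *Irf5*, a transcription factor that acts below such receptors, fell, with 4.16, 4.29, 4.58 and 4.32 FPKM against 6.19, 9.40, 8.40 and 7.97 FPKM (-0.74 ± 0.12, limma adjusted p = 0.0069). The HFrD values of *Irf5* lay within a narrow band below every ND liver, and the call held with each library left out. The call of *Mavs* was lost without ND mouse 1 (0.0589), HFrD mouse 5 (0.0565) or HFrD mouse 7 (0.0581), and that of *Tlr7* without any library but ND mouse 7 (0.0522 to 0.0944). *Irf3*, the most abundant of the 13, was at 32.7, 27.8, 23.8 and 27.1 FPKM with the HFrD and at 26.3, 26.2, 25.6 and 31.1 FPKM with the ND, which overlap. *Tlr7* and *Irf5* are also in the study's lists, *Tlr7* as higher and *Irf5* as lower in both HFrD and *db/db* mice, with the HFrD side from these same libraries.

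Among 41 tested interferon-induced genes that are no members, 13 were higher (31.7%, beside 5.44% of all genes tested) and 0 lower. Their median log2 fold change was 0.50. At an unadjusted p under 0.05 the counts were 24 and 0, without a share of all genes to set beside them. *Ifi27l2a*, an interferon-induced gene of the Ifi27 family, had the highest fold change of the list, at 31.0, 25.1, 17.4 and 16.5 FPKM in HFrD livers and 3.61, 5.84, 1.83 and 3.50 FPKM in ND livers (2.35 ± 0.27, limma adjusted p = 0.00145). *Isg20*, an exonuclease that degrades viral RNA, was at 2.88, 4.36, 2.44 and 2.92 FPKM against 0.622, 0.463, 0.542 and 1.19 FPKM (limma adjusted p = 0.00294). *Lgals9*, a galectin and the most abundant of the list, was at 174, 238, 212 and 183 FPKM against 137, 136, 125 and 148 FPKM (limma adjusted p = 0.0139). Every HFrD liver was above every ND liver for these 3. *Ifitm2*, a neighbour of *Ifitm3* with a similar sequence, was at 134, 116, 140.0 and 170.3 FPKM against 79.3, 89.8, 65.7 and 74.8 FPKM. The others that passed, 9 genes, had log2 fold changes from 0.59 (*Trex1*) to 1.19 (*Ifi204*), and none of them overlapped between the diets. *Ifi204* was at 6.93, 10.4, 5.46 and 7.09 FPKM in HFrD livers and 3.13, 3.41, 1.72 and 2.50 FPKM in ND livers. Its relative *Ifi205* was at 0.902, 1.44, 1.16 and 0.730 FPKM against 0.186, 0.282, 0.404 and 0.237 FPKM. *Pyhin1* was at 1.89, 2.93, 1.29 and 1.41 FPKM against 0.832, 1.00, 0.447 and 0.540 FPKM. These 3 belong to a family of proteins that bind DNA, and *Ifi205* reached the filter through its HFrD values. *Slfn2* was at 3.72, 3.19, 2.53 and 3.90 FPKM against 2.15, 1.81, 1.48 and 1.45 FPKM. *Slfn5* was at 7.02, 10.5, 6.59 and 7.001 FPKM against 3.37, 4.25, 3.11 and 3.63 FPKM. Both are Schlafen genes, and HFrD mouse 2 was the highest for *Slfn5* but not for *Slfn2*. *Trex1*, an exonuclease that clears DNA from the cytosol, was at 4.19, 3.92, 3.17 and 3.80 FPKM against 2.34, 1.58, 2.69 and 2.15 FPKM. *Lgals3bp*, a secreted protein that binds galectins, was at 34.8, 38.3, 34.5 and 31.0 FPKM against 23.1, 20.7, 22.3 and 20.3 FPKM. Its values lay close together within each diet. *Ifi27l2b* was at 1.82, 1.79, 1.72 and 3.38 FPKM against 0.591, 0.749, 0.257 and 0.880 FPKM. *Tor3a*, of the torsin family, was at 2.49, 5.52, 2.79 and 2.52 FPKM against 1.63, 1.25, 0.918 and 1.67 FPKM. Of the 13, 8 passed with each library left out in turn.

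Of 23 other genes known from the interferon-gamma response, 2 were higher (8.7%, beside 5.44% of all genes tested). Only 1 was lower, beside 3.69% of all genes, so these counts are small next to those shares. *Tgtp2*, a T cell GTPase that shares its locus with *Ifi47*, was at 6.05, 8.26, 7.29 and 4.85 FPKM in HFrD livers and at 2.26, 2.26, 0.542 and 3.83 FPKM in ND livers (1.33 ± 0.30, limma adjusted p = 0.0239). *Tapbp*, which helps load peptides on MHC class I, was at 38.0, 35.9, 35.4 and 40.2 FPKM against 27.7, 30.9, 23.9 and 29.9 FPKM (limma adjusted p = 0.0295). *Gm4951*, a GTPase related to *Iigp1*, fell, with 57.2, 51.1, 38.5 and 46.2 FPKM against 74.8, 66.7, 61.4 and 61.3 FPKM (-0.45 ± 0.12, limma adjusted p = 0.0478). Each of these 3 calls was lost with some library left out, that of *Tgtp2* without ND mouse 1 or 3 or HFrD mouse 2 or 5 (0.0561 to 0.0659), that of *Tapbp* without ND mouse 1 or 6 or HFrD mouse 2, 5 or 7 (0.0542 to 0.0804) and that of *Gm4951* without any but HFrD mouse 1 (0.0593 to 0.121). *Psme1*, an activator of the proteasome and the most abundant of the list, overlapped (73.8, 69.1, 86.6 and 64.7 FPKM with the HFrD, 67.4, 53.9, 63.9 and 76.6 FPKM with the ND), as did *Cxcl9* and *Cxcl10*, chemokines that attract T cells.

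**Figure D4:**
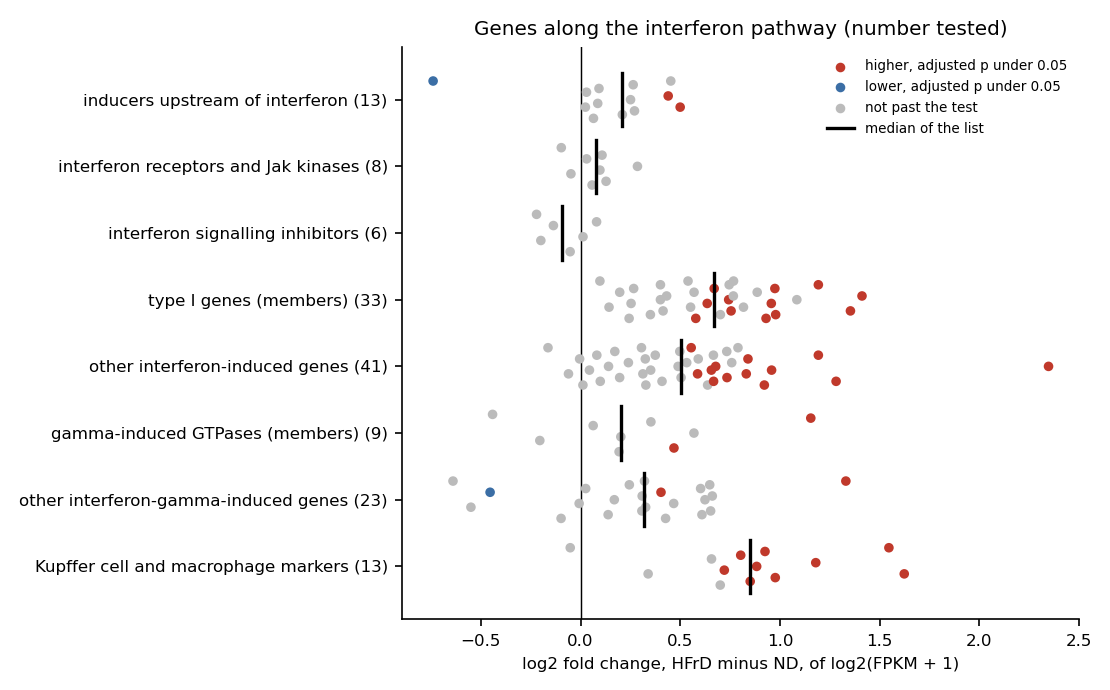
Log2 fold change (HFrD minus ND, of log2(FPKM + 1)) of each tested gene of 8 lists, with the number tested in parentheses, the median as a black bar, genes that passed the test upwards in red and downwards in blue. The medians of receptors and inhibitors are 0.077 and -0.095, that of the type I members is 0.67 and that of the Kupffer cell markers 0.85.

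Markers of the cells of the liver were read in the same libraries. The hepatocyte genes were high in every library, with *Alb* between 24266 and 37173 FPKM. Of 8 tested markers 1 was higher (*Ttr*), or 12.5%, beside 5.44% of all genes tested. Of 13 tested Kupffer cell and macrophage markers, 9 were higher in HFrD livers (69.2%, beside 5.44% of all genes tested). They were *Clec4f*, *Vsig4*, *Cd5l*, *Marco*, *C1qa*, *C1qb*, *C1qc*, *Emr1* and *Csf1r*. All 14 markers found, higher or not, summed to 234 to 355 FPKM in HFrD and 116 to 191 FPKM in ND livers, without overlap. Among HFrD livers the order of the mice was not that of the type I members. HFrD mouse 2 was the lowest HFrD liver for 11 of the 13 tested markers and the highest for 0, while it was the highest HFrD liver for 35 of the 42 members. Over all genes tested, HFrD mouse 2 was the lowest HFrD liver for 24.7% and the highest for 20.6%. The type I members summed to 719, 880, 712 and 755 FPKM in HFrD mice 1, 2, 5 and 7, against 383 to 492 FPKM in ND livers. ND mouse 6 was the lowest of the 8 livers both for 10 of the 13 markers and for 22 of the members. The part of these cells in the difference of the members was not tested.

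**Figure D5:**
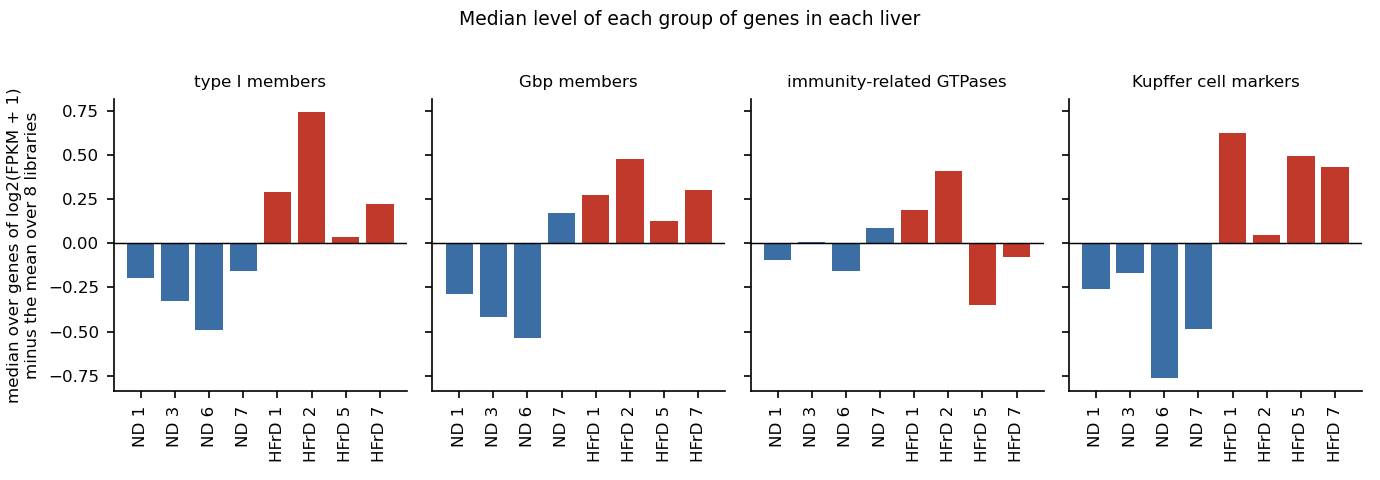
Median over the genes of a group of log2(FPKM + 1) minus the gene's mean over the 8 livers, for each liver (ND blue, HFrD red). HFrD mouse 2 has the highest bar of the type I members (0.739) and the lowest HFrD bar of the Kupffer cell markers (0.0457), and the immunity-related GTPases of HFrD mice 5 and 7 lie below 0.

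Lymphocyte, plasmacytoid dendritic cell and neutrophil markers were low. T and NK cell markers summed to 2.48 to 3.70 FPKM over 12 genes in HFrD and to 2.50 to 4.08 FPKM in ND livers, and B and plasma cell markers to 1.09 to 2.42 and 1.88 to 3.96 FPKM over 5 genes. *Siglech*, which marks plasmacytoid dendritic cells, a main source of type I interferon, was at 0.178 to 0.370 FPKM in the 8 livers, and *Cox6a2* was at 0 in all. That list summed to 9.38 to 11.3 FPKM in HFrD and 5.97 to 7.95 FPKM in ND livers. *Tcf4* made up most of that level (6.94 to 8.14 FPKM against 5.24 to 7.74 FPKM). *Ly6d* made up most of the difference (means of 2.35 and 0.117 FPKM). It was 1 of 2 genes tested and was higher, but it reached the filter through its HFrD values. The neutrophil markers *Ly6g* and *Ngp* were at 0 in every library, and the list summed to 4.22 to 11.1 against 2.96 to 12.1 FPKM. Of 7 sinusoidal endothelial markers 2 were higher (*Lyve1* and *Oit3*), or 28.6%, beside 5.44% of all genes tested. That list summed to 112 to 123 FPKM against 85.5 to 111 FPKM. Of 6 tested stellate cell and 3 tested cholangiocyte markers 0 passed, with 3 and 0 genes at an unadjusted p under 0.05. The part of these cells in the difference of the members was not tested either.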

How the data were processed

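Liver RNA of 4 HFrD and 4 ND mice was sequenced after removal of ribosomal RNA, 1 library per mouse. The authors deposited 1 table of FPKM values for 22564 protein-coding genes. Their reads had been trimmed (Cutadapt 1.9.3) and aligned to mm10 (HISAT2 2.0.4), while Cufflinks and Cuffdiff stand in the submitters' notes without a version. The annotation release is not given in the sources used here. The paper and the labels name different stranded library kits, which could not be settled. The labels gave the diet and the number of each mouse. MeRIP-Seq samples and *db/db* mice were not analysed here.

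Values were taken as log2(FPKM + 1). Genes whose mean over the 8 libraries reached 0.5 FPKM (11476 genes) were fitted with limma 3.58.1 in R 4.3.3 (diet as the only term, eBayes with trend, two-sided), with p values adjusted over all of them (Benjamini-Hochberg). The FPKM come without the fragment counts behind them, so the absolute depth and the counting error of a value are unknown. The procedure was tested on simulated data. Single genes were also compared by exact permutation over 70 relabellings. Tables were made with pandas 2.3.3 and numpy 2.4.6, and plots with matplotlib 3.10.9, in Python 3.11.15.

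The members and the 20 lists of pathway genes, roles and cell type markers (242 entries, 10 of which matched no gene) were chosen with earlier results of these data known, and 1 further gene of the pathway is not reported here. Values in every library are given for each member that passed, for the member of each role with the highest mean and for that with the smallest p, and of each pathway list for genes that passed and the most abundant gene. Other genes are given by ranges or counts. For 12 members the authors' locus is shared with another gene. Positions are from GENCODE release M21, and promoter sequences from RefSeq (GRCm38.p6). Alternatives changed 1 choice at a time, namely the pseudocount (0.1), the filter (none, or a mean of 1 FPKM), the scaling (quantile normalization, or equal medians), the weights (by array), the variance model (no trend) and the block (mouse number), and each library was also left out. Leaving out HFrD mouse 1 together with ND mouse 7 was added after seeing the data.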

Additional observations from a re-analysis of the deposited data

Results flagged for a closer look

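Of 84 groups of 4 livers (42 members in each diet), 7 held a liver far from the other 3 by Dixon's test at the 95% level, and chance flags about 1 in 20 groups. HFrD mouse 2 was the high liver for *Rsad2* (8.81 FPKM, others 3.13 to 3.65 FPKM), *Ifi44* (7.86 FPKM, others 3.87 to 4.37 FPKM), *Xaf1* (9.49 FPKM, others 6.92 to 7.18 FPKM) and *Gbp3* (7.89 FPKM, others 5.08 to 5.39 FPKM). Among ND livers, mouse 7 was high for the neighbours *Igtp* (14.2 FPKM, others 11.8 to 11.9 FPKM) and *Irgm2* (24.9 FPKM, others 18.2 to 18.8 FPKM), which share 1 locus in the authors' table and so are not independent. ND mouse 6 was low for *Ifit2* (1.28 FPKM, others 2.11 to 2.17 FPKM).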

How the results depend on the processing

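Of the 14 members that passed, 14 also passed with a pseudocount of 0.1, 13 after quantile normalization, 13 with equal medians, 13 without trend, 12 with a filter at 1 FPKM, 14 with array weights and 10 without a filter on low values. Without that filter 1 GTPase passed instead of 2. With the filter at 1 FPKM, *Oas2* and *Oas3* (means of 0.945 and 0.677 FPKM) were not tested, which accounts for the lower count there. With each library left out in turn, 9 to 16 members were higher and 0 to 1 lower, 1 to 2 of the transcription factors passed, 0 to 2 of the ISG15 and ADP-ribose members and 0 to 3 of the GTPases, and over all genes 340 to 661 were higher and 184 to 635 lower. The 1 lower member, *Ifi47*, passed without HFrD mouse 1. The summed FPKM of the GTPases, HFrD minus ND, was -8.74 over all livers and -23.5 to 11.7 with a library left out, the positive value being that without HFrD mouse 5. The log2 fold change of *Irgm1* was -0.070 without HFrD mouse 2. Leaving out HFrD mouse 1 and ND mouse 7 together, chosen after seeing the data, gave 16 members higher and, over all genes, 696 lower. The cause of these shifts was not tested.

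Mice 1 and 7 occur in both diets, but the labels do not say that a number marks a shared animal or cage, and the deviations of same-numbered libraries correlated at 0.077 and -0.014 over all genes. A fit with the mouse number as a replicate block compares the diets through mice 1 and 7 only. Every other number occurs in a single diet and is taken up by its own block term. In this fit 2 genes were higher and 0 lower over all genes. With so few livers compared, it cannot decide whether the calls hold. In it 0 members passed, so that 0 sensors, 0 transcription factors, 0 antiviral effectors and 0 GTPases did. In that fit the log2 fold change of *Oasl1* was -0.21, and the medians were 0.47 over the type I members and 0.19 over the GTPases.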
